A study of Homo sapiens with 2 samples.

Results

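The peaks described here are those listed under the gene names KLHL14, OSBPL10, CREB3L2 and HIVEP1 in a deposited table of TCF4 binding sites, 11 of 662 peaks and 4 of 275 genes. KLHL14, OSBPL10 and CREB3L2 had 3 peaks each and HIVEP1 had 2. All rows with one of these names were taken, with no threshold beyond any that was used to make the table. The genes were chosen by having listed peaks, with the reads and folds of these peaks already known, so the values below are a description. The table comes from ChIP-seq (sequencing of DNA that is precipitated with a protein) on SU-DHL-2, a cell line from a large B-cell lymphoma of the activated B-cell kind (ABC-DLBCL), in which the TCF4 gene is not gained. Both libraries came from cells carrying a tetracycline-inducible TCF4 that had received 60 ng/ml doxycycline for 24 hours. The cells of both were fixed with 1% formaldehyde. The first library is the TCF4 precipitate, made with 5 µg of antibody, and the second is whole-cell input DNA. There was 1 library of each, so no value has a replicate, no test between conditions could be made, and sites of the exogenous factor cannot be told apart from those of any TCF4 the cells already made. Intervals are at 95% and cover counting error only, since no library has a replicate. Reads are not independent molecules, so the intervals can be too narrow even for that error. If the deposited signal is reads per kilobase and megaread, its scaling corresponds to 93.5 M ChIP and 84.4 M input reads.

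TCF4 (E2-2) is a basic helix-loop-helix factor of the E-protein family. It binds DNA as a dimer at E-boxes, short palindrome-like motifs spelled CANNTG, and acts in B-cell and plasmacytoid dendritic cell development. HIVEP1 is a very large zinc-finger protein that binds kappaB-like enhancer sequences. CREB3L2 (BBF2H7) is a transcription factor of the bZIP class that is held in the endoplasmic reticulum membrane and released by cleavage under stress there, and in mouse cartilage it drives genes of protein secretion. KLHL14 is a BTB-Kelch protein, a family that presents substrates to cullin ubiquitin ligases, and it limits the supply of B-cell receptor subunits. OSBPL10 (ORP10) carries lipids between membranes that lie in contact. KLHL14 and OSBPL10 are known as recurrent mutation targets in diffuse large B-cell lymphoma, and CREB3L2 as a gene of the ABC-DLBCL expression signature. The table holds nothing that bears on a link to lymphoma beyond its own mark, which was Up for all 4 genes and for 83.3% of the 275 genes. The table does not say to what Up is relative.

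RefSeq start-site windows (250 bases before to 50 after the start, build GRCh38.p14) were available for OSBPL10 and CREB3L2 and are shown because TCF4 recognises E-boxes and because no listed peak of these genes was marked as promoter. Every CANNTG match is in capitals. The motif reads the same on both strands, and no 2 matches overlapped. The windows lie at chr3:31981213-31981512, chr7:138002037-138002336 and chr7:137932939-137933238, all on the minus strand.
OSBPL10: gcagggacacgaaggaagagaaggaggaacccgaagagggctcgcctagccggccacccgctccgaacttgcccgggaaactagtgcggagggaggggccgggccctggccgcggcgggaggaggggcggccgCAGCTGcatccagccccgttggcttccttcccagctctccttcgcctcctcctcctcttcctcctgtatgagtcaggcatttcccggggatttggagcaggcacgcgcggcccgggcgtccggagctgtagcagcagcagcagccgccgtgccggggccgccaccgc
CREB3L2, upstream start: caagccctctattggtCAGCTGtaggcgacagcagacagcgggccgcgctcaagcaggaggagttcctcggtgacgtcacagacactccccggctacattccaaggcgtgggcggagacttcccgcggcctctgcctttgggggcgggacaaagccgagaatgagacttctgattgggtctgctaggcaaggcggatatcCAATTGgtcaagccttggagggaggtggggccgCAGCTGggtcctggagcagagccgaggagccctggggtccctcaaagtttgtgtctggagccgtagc
CREB3L2, internal start: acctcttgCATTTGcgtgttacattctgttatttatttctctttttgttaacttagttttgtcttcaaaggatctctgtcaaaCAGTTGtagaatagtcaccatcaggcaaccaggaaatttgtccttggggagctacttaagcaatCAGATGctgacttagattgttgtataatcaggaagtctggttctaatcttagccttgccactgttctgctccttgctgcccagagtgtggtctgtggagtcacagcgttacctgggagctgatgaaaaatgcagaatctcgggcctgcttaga
The OSBPL10 window held 1 E-box, the core CAGCTG at position -117 counted from the start site. The upstream CREB3L2 window held 3, the core CAGCTG at positions -234 and -17 and the core CAATTG at position -50. The internal CREB3L2 window also held 3, at positions -242, -167 and -103, and no CAGCTG. The core CAGGTG, which E-proteins also bind, was in none of the 3 windows on either strand. Of all 35116 RefSeq windows of the same length, 68.7% held a CANNTG match, 17.9% held CAGCTG and 20.6% held CAGGTG on either strand. The median was 1 CANNTG match per window, and the share of windows with 3 or more matches was not computed. A match of these letters is a description of the window and not a binding site.

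HIVEP1 carried the peak that stood apart by fold and by ChIP reads. Its first peak (peaks are numbered within each gene by ChIP reads), at 12044555 to 12045292 on chromosome 6 (hg19, as are all peak positions), held 551 reads in the ChIP library and 25 in the input. Fold enrichment stands for the ratio of ChIP to input reads, scaled by the constants of the deposited signal, and here it was 19.9 (interval 13.3 to 31.01). By this fold the peak ranked 6 of 662, and by ChIP reads and by the authors' deposited ChIP signal (reads per width, scaled per library) it ranked 3. Its rank was lower by the deposited local −log10 p-value, 5.80, rank 83 and below that of the first CREB3L2 peak. That value sets a peak against its surroundings, but it is a p-value and not a size of enrichment. The first HIVEP1 peak lay within the gene, 32.2 kb from the start site and 21.1% of the way along the 153 kb transcript. The summit lay 318 bp into the 737 bp interval, close to its middle. The ChIP signal was 8.0 (interval 7.34 to 8.69) against a median of 2.10 over all listed peaks. The input signal was 0.402 (interval 0.26 to 0.594), near the median of 0.414. The high ratio thus went with a ChIP read density 3.81 times the median and with an input density close to that of the other listed peaks.

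The peaks next to it in rank rested on far fewer reads. The peak of SLC35A5 directly above was enriched 21.2-fold on 47 ChIP and 2 input reads, with an interval of 5.55 to 180.3. The peak of DDX18 directly below was enriched 17.6-fold on 39 ChIP and 2 input reads (interval 4.56 to 150.5). Their intervals contain that of the HIVEP1 peak.

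The second HIVEP1 peak was an ordinary member of the table. It lay at 12151035 to 12151381, near the other end of the gene, 138 kb from the start site and 14.02 kb from the transcript end. It was 346 bp wide and held 49 ChIP and 7 input reads, a 6.32-fold enrichment (interval 2.85 to 16.5) with rank 172. Its ChIP signal of 1.52 was below the table's median, and so was its input signal of 0.24. The first peak was enriched 3.15 times as much as the second (interval of this ratio 1.09 to 7.97). Of the 600 ChIP reads in the peaks of HIVEP1, 91.8% lay in the first. The fold over both peaks together, 16.9 (interval 11.9 to 25), was the rank 3 value among the 275 genes, whose median was 5.24, and without the first peak it was 6.32.

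**Figure D1:**
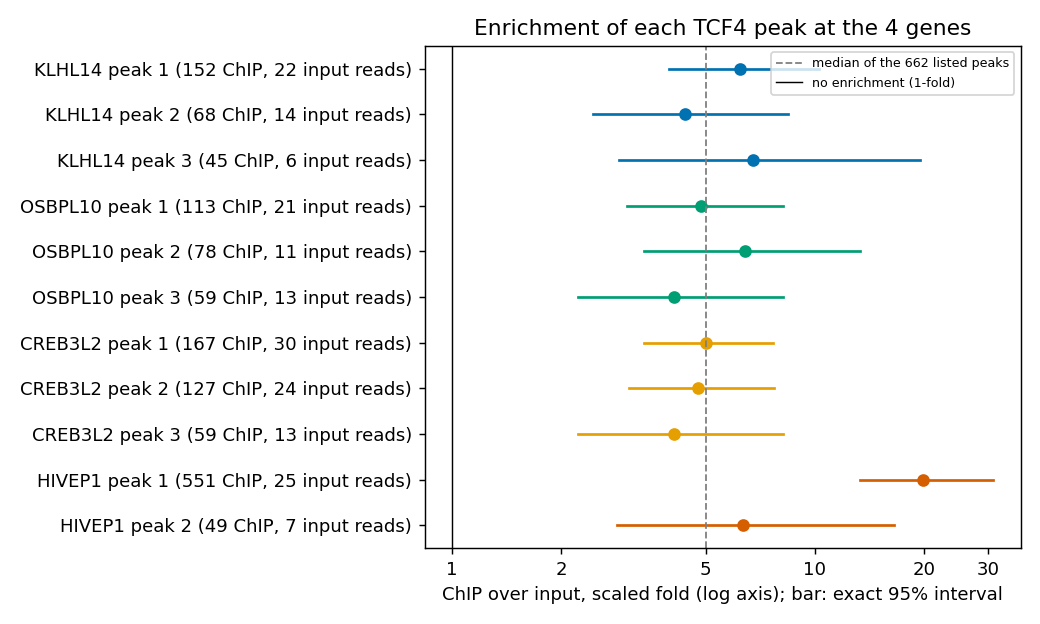
Scaled fold of ChIP over input reads (horizontal, log axis) for each of the 11 peaks (vertical, named with their reads), with exact 95% intervals of counting error as bars, the median of the 662 listed peaks dashed and 1-fold as a solid line. The first HIVEP1 peak sits at 19.9, and the other 10 lie between 4.1 and 6.77 with overlapping intervals.

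CREB3L2, the other transcription factor gene, had the 2 peaks with the highest ChIP read densities after the first HIVEP1 peak, but ordinary enrichments. Its first peak, at 137486878 to 137487581 on chromosome 7, held 167 ChIP and 30 input reads and was enriched 5.02-fold (interval 3.39 to 7.68). The second, at 137671453 to 137671885, held 127 and 24 reads and was enriched 4.78-fold (interval 3.07 to 7.73). The third, at 137630840 to 137631185, held 59 and 13 reads and was enriched 4.10-fold (interval 2.22 to 8.14). The 3 folds lay within each other's intervals. Over the gene the fold was 4.76 (interval 3.65 to 6.27), the lowest of the 4 genes and rank 191 of 275.

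The input signals at the same places were in the upper part of the table. The second CREB3L2 peak had a ChIP signal of 3.15 (interval 2.62 to 3.74), rank 96 of 662, together with an input signal of 0.658 (interval 0.422 to 0.98), rank 65. The first had 2.54 (rank 198) and 0.506 (rank 186), and the third 1.83 (rank 460) and 0.447 (rank 269). All 3 input signals were above the table's median of 0.414, but the intervals of the first (0.341 to 0.722) and the third (0.238 to 0.764) included it. The part of the input density in these ChIP signals was not tested.

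The authors assigned the 3 CREB3L2 peaks to 3 different transcripts of the gene, which is read from high to low coordinates. The distances given in the table place their starts at 2 sites 69.1 kb apart, and the start sites of the 2 RefSeq windows shown above also lie 69.1 kb apart in their own build. The second peak lay 15.2 kb inside the transcripts that begin at the upstream site. The third was listed at 55.8 kb from that site, but the internal start is nearer, 13.3 kb away, and with respect to it the peak lies upstream. The first peak lay 72.5 kb past the end of the gene and was listed at 131 kb from the internal start, 199.6 kb from the upstream one. It had the highest local −log10 p-value of the 11 peaks in the authors' deposited table, 6.02 (rank 65), a measure of the peak against its surroundings.

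**Figure D2:**
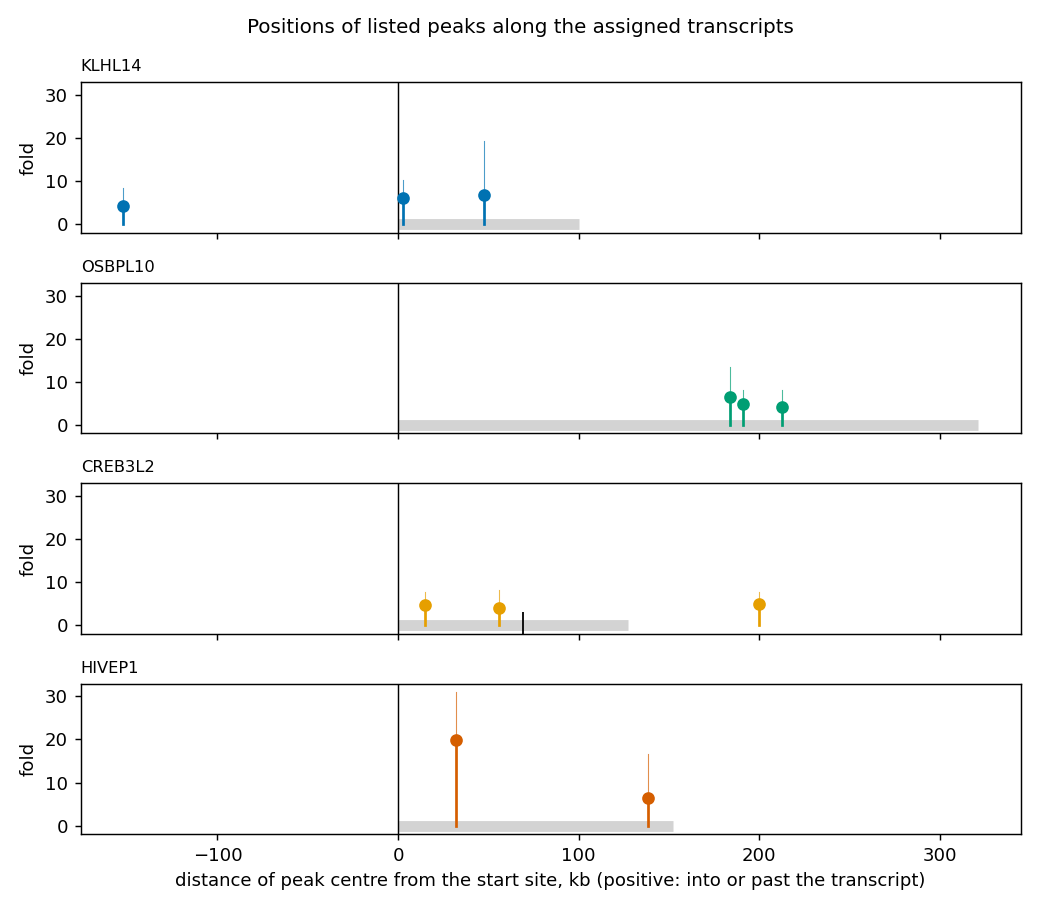
Fold of each peak (vertical, with thin bars for the 95% interval) against the distance of its centre from the start site of the assigned gene in kb (horizontal, positive into or past the transcript), with the transcript as a grey bar and the internal start of CREB3L2 as a black tick. The first KLHL14 peak lies 2.67 kb from the start, the 3 OSBPL10 peaks lie together between 184 and 213 kb, and 1 peak each of KLHL14 and CREB3L2 lies outside the gene.

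KLHL14, the ubiquitin ligase adaptor gene, had the peak closest to a start site. Its first peak, at 30349855 to 30350746 on chromosome 18, lay 2.67 kb inside the gene, and the authors did not mark it as promoter. At 891 bp it was the widest of the 11 and rank 28 of 662 in width. It held 152 ChIP and 22 input reads, a 6.24-fold enrichment (interval 3.97 to 10.2). Its summit was off centre, 215.5 bp from the middle on the side facing the start site. Spread over its width, the ChIP signal was only 1.83, rank 465, so the rank of 116 by reads went with its width.

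The other KLHL14 peaks were narrower and farther away. The second, 381 bp wide at 30504899 to 30505280, lay 152 kb upstream of the gene and was enriched 4.38-fold on 68 ChIP and 14 input reads (interval 2.44 to 8.44). Its deposited local −log10 p was the highest of the 3, 5.58 (rank 108) against 4.2 and 4.02 for the others. The third, at 30305063 to 30305392, lay near the middle of the gene, 47.7 kb from the start. It had the fewest reads of the 11 peaks, 45 and 6, which gave a 6.77-fold enrichment with a wide interval of 2.88 to 19.4. It ranked 145 by fold but 608 by ChIP reads. Over the gene the fold was 5.69 (interval 4.1 to 8.09, rank 92), and the interval of the ratio included 1 for every pair of its peaks.

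OSBPL10, the lipid carrier gene, had its peaks in a cluster deep inside the gene. All 3 fell within 29.3 kb of chromosome 3, between 57.2% and 66.2% of the way along a 321 kb transcript and 184 to 213 kb from its start. Neighbouring centres were 7.59 kb and 21.4 kb apart. By contrast the peaks of KLHL14 spanned 200.2 kb, those of CREB3L2 185 kb and those of HIVEP1 107 kb. The table does not say whether a site within a gene is in an exon or an intron.

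Among the OSBPL10 peaks the interval of the ratio also included 1 for every pair. The first, at 31831842 to 31832435, held 113 ChIP and 21 input reads and was enriched 4.86-fold (interval 3.03 to 8.15). The second, at 31839523 to 31839935, held 78 and 11 reads and was enriched 6.4-fold (interval 3.39 to 13.3). The third, at 31810586 to 31810939, had the same reads as the third CREB3L2 peak, 59 and 13, and the same 4.10-fold enrichment. That is close to the lower end of the table, where the smallest fold was 3.75. The second peak had the highest fold of the 3 but the smallest local −log10 p of the table, 2.03, tied with other peaks at rank 643. Over the gene the fold was 5.01 (interval 3.64 to 7.05, rank 163).

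**Figure D3:**
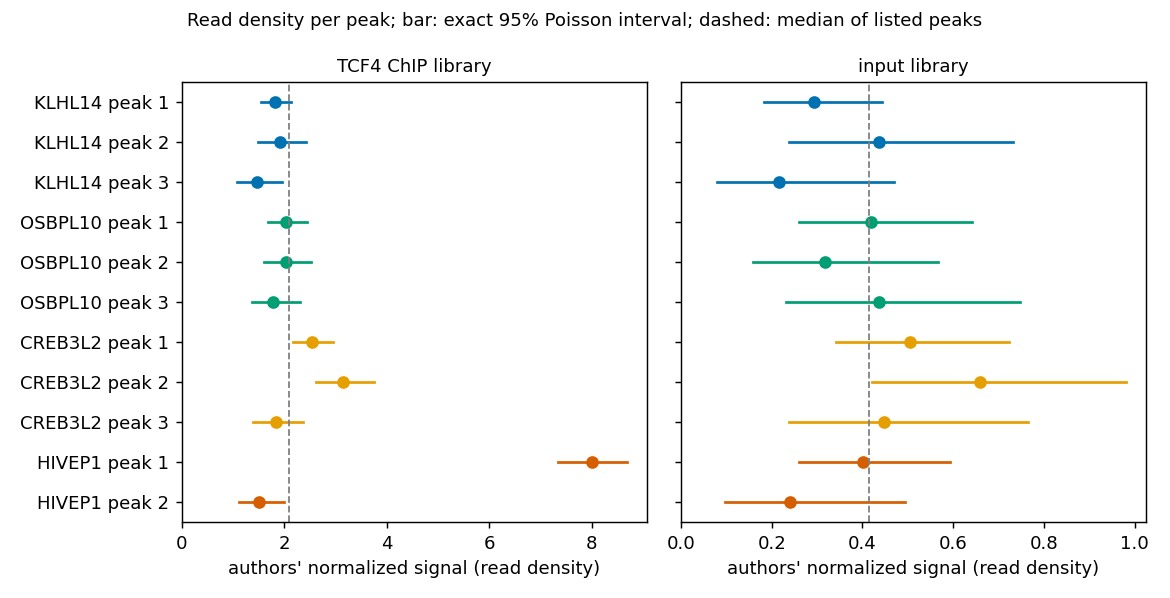
The authors' normalized signal (horizontal, a read density scaled per library) of each of the 11 peaks (vertical) in the ChIP library on the left and the input library on the right, with exact 95% Poisson intervals as bars and the median of the 662 listed peaks dashed. The first HIVEP1 peak reaches 8.0 in the ChIP library and 0.402 in the input, and the CREB3L2 peaks have the 3 highest input signals of the 11.

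Set side by side, the 4 genes were described by the first HIVEP1 peak against the other 10. In all 10 pairs it had the higher fold, by 2.94 to 4.86 times, and in 9 of them the interval of the ratio lay above 1. The exception was the third KLHL14 peak with its 6 input reads, where the ratio of 2.94 had an interval of 0.935 to 7.83. Among the other 10 peaks, 0 of 45 pairs had an interval that left out 1, and the ratios went up to 1.65. The upper ends of these intervals ran from 1.96, for the first over the second CREB3L2 peak, to 5.71, for the third KLHL14 peak over the third OSBPL10 or CREB3L2 peak, so the size of difference that each pair allows depended on its reads. These intervals were not adjusted for the number of pairs, and the first HIVEP1 peak was known to be high when the genes were chosen, so the contrast is a description.

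Against the whole table the 11 peaks were ordinary in the middle. No listed peak had a fold below 3.75 or a local −log10 p below 2.03. Weaker sites are thus not in the table, and whether a threshold removed them is not stated. A fold of 5 or more was reached by 6 of them and by 50.3% of all listed peaks. Their median fold was 5.02 and that over all 662 peaks 5.01, their median width 412 bp against 424 bp, and their median ChIP reads 78 against 91. The authors' other p-value, against a read distribution, was infinite for 5 of the 11, all with over 100 ChIP reads, and for 44.1% of the table. They did lie farther out. Distances over 100 kb from the listed start site were found for 6 of 11 peaks and for 20.4% of the table, and the median distance was 131 kb against 39.7 kb. All 3 OSBPL10 peaks were among these 6, so the count reflects few genes. By the authors' annotation 9 of 11 lay within the gene (52% of the table), 1 upstream and 1 downstream, and 0 were marked as promoter (5.44% of the table). Having 3 or more peaks, as KLHL14, OSBPL10 and CREB3L2 did, was found for 34.5% of the listed genes.

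**Figure D4:**
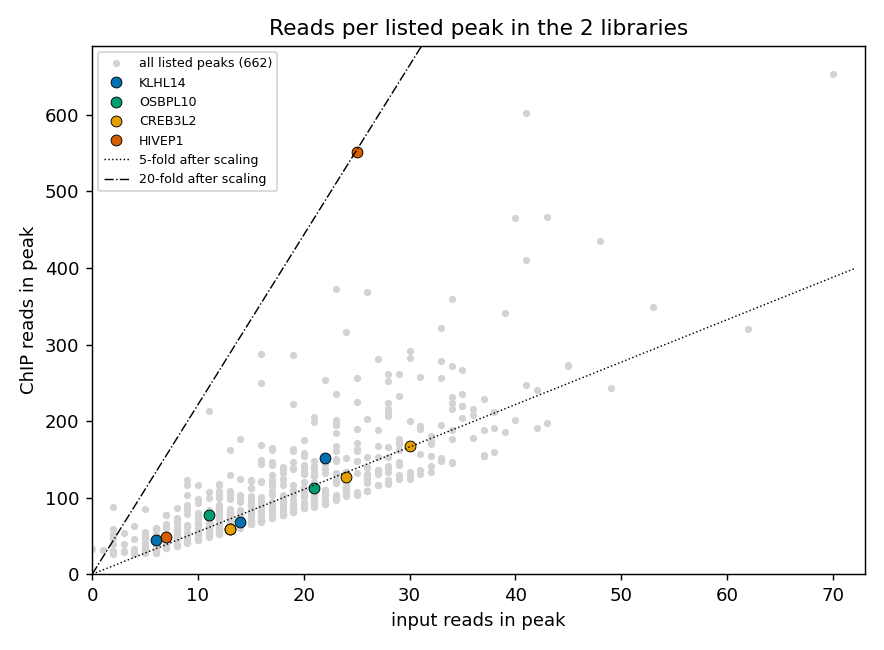
ChIP reads (vertical) against input reads (horizontal) in each of the 662 listed peaks (grey) and the 11 peaks of the 4 genes (colours), with lines at a 5-fold and a 20-fold ratio after scaling. The first HIVEP1 peak lies on the 20-fold line at 551 ChIP reads, and the other 10 lie along the 5-fold line; the third peaks of OSBPL10 and CREB3L2 fall on the same point.

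No peak of another listed gene lay between the outermost peaks of any of the 4 genes. The nearest listed peak of another gene was 345 kb from those of OSBPL10, under the name GPD1L, an enzyme gene of glycerol phosphate metabolism, with 82 ChIP and 16 input reads (4.63-fold, interval 2.69 to 8.47). For KLHL14 it was 580 kb away under RNF138, a ubiquitin ligase gene (4.51-fold, interval 2.26 to 9.98). For CREB3L2 it was 995 kb away under ZC3HAV1L, and for HIVEP1 it was 11573 kb away under IRF4. On the remaining side the gaps were 2076 kb for KLHL14, 16748 kb for OSBPL10, 21591 kb for CREB3L2 and 13919 kb for HIVEP1. The table holds only genes of a TCF4 signature, and the gaps around its other genes were not computed. Whether the 4 loci lie farther from other listed peaks than is usual was therefore not tested.

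Relatives of the 4 genes were mostly not in the table, which for genes outside the signature does not bear on binding. Of 12 oxysterol-binding protein genes, OSBPL10 and OSBPL11 had listed peaks. OSBPL11, another lipid transfer protein gene, had 2 peaks with 322 ChIP and 43 input reads in all, 6.76-fold (interval 4.91 to 9.52). That interval overlaps the one of OSBPL10, and the nearest OSBPL11 peak lay 9.85 kb from its start site. KLHL14 was the only listed gene of 51 in the Kelch list, CREB3L2 of 10 in the list of CREB3 and stress-response bZIP factors, and HIVEP1 of 3 in its own family. Of 15 genes of the secretory pathway, the kind that CREB3L2 drives, 0 were listed. Shares over all genes were not computed beside these counts, so they are a description and no result about these families or about targets of CREB3L2.

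KLHL14 and OSBPL10 belong to a list of 35 genes known as targets of aberrant somatic hypermutation in this lymphoma. Of these 7 were listed, all marked Up, as were 83.3% of all listed genes. The count includes KLHL14 and OSBPL10 themselves, and the list was drawn up with earlier results known. No share over all genes was computed, so the count is a description and does not show an excess of such targets. The others were BCL2, HIST1H1C, IRF4, MYC and PIM1, where the row named MYC carries the accession of the neighbouring gene CASC11. IRF4, the plasma-cell factor gene, had a fold of 6.04 over 4 peaks (interval 4.82 to 7.65), and the single peak of HIST1H1C, a linker histone gene, 5.64-fold (interval 2.65 to 13.8). PIM1, a kinase gene of the ABC-DLBCL signature like CREB3L2 and IRF4, had a fold of 5.56 over 3 peaks (interval 4.29 to 7.31) and was marked Up. BCL2 had a fold of 4.82 over 9 peaks (interval 4.17 to 5.58), and the row named MYC 5.05 on 28 ChIP and 5 input reads (interval 1.93 to 16.8). The fold of KLHL14, 5.69, lay between those of HIST1H1C and IRF4. That of OSBPL10, 5.01, lay between BCL2 and MYC, and that of CREB3L2, 4.76, below all of these. Their intervals overlapped those of the genes compared, and the fold of HIVEP1 lay above them all.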

How the data were processed

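Per the labels' protocols, 1 ChIP library and 1 input library were made from induced SU-DHL-2 cells, with spike-in chromatin added. The submitters' processing notes name BWA, GATK and the build hg19 with neither role nor version, and for the peak caller no source used here gives a name. The authors deposited 1 table of peaks related to signature genes, so it is a selection. It gives whole-number read counts per peak for TCF4 and for a column headed IC, taken as the input, the only other library. The deposited signal equals reads over width over 1 constant per library. The deposited log2 ratios and −log10 p-values are the authors' own, and whether positions count from 0 or 1 is not stated. All distances in the deposited table were used as given, and starts of transcripts were derived from them.

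Folds, ranks and exact intervals were computed with scipy 1.17.1 and numpy 2.4.6 on tables read by pandas 2.3.3 (Python 3.11.15). Intervals were Clopper-Pearson for folds, Poisson for signals and conditional odds ratio for pairs. The interval of the folds was tested on simulated data with independent reads, so its coverage where reads are not independent was not tested. For 1 listed peak outside the 4 genes with no input read, the fold used a floor of 3 reads. All 6 accessions of the 4 genes matched their names in RefSeq. The genes and the lists were chosen with earlier results of these data known. Genes outside the 4 were named where they had a listed peak and belonged to a list, or lay next to a member in fold rank or position. The count over the list of ABC-DLBCL genes is not reported here.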

Additional observations from a re-analysis of the deposited data

How the results depend on the processing

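The enrichments changed little with the computation. The median fold of the 11 peaks, 5.02, was 4.89 with 1 read added to each library and 5.57 without the scaling. Leaving out the scaling changes every fold by the same factor. Neither change moved a fold of a peak or gene beyond its interval, but the intervals are wide against such shifts, so this says little. The count of peaks at 5-fold or more, 6 of 11, was 5 of 11 with 1 read added and 8 of 11 without scaling. It was 5 of 9 with a local −log10 p of at least 3 and 5 of 10 without the first HIVEP1 peak. The share over the whole table, 50.3%, was computed for the main setting only. Whether these changes differ from those of the table was therefore not tested. Without its first peak the fold of HIVEP1 was 6.32. Keeping peaks at or above the table's median of 91 ChIP reads left 5 of 11 peaks, 1 each for KLHL14, OSBPL10 and HIVEP1 and 2 for CREB3L2. In the upper 50% of the table lay 6 peaks by fold and 3 by ChIP signal. Restricting E-boxes in the promoter windows to the cores CAGCTG or, on either strand, CAGGTG left 3 of 7 matches. The E-box restriction and the removal of the HIVEP1 peak from the counts were chosen after seeing the data. E-boxes within the peaks were not analysed here, since no genome of the build was used. Counting error limits peaks with few input reads most. No paired analysis was possible because there is 1 library of each kind.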
